A study of Mus musculus with 8 samples.

Results

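The ETO family of transcriptional corepressors, also called the myeloid translocation genes, has 3 members in the mouse: Cbfa2t2 (MTGR1), Cbfa2t3 (MTG16 or ETO2) and Runx1t1 (ETO or MTG8). They were taken by gene symbol from the 29442 genes of the count table, of which 27612 had at least 1 count and were tested. The genes were picked with results of the treatment contrast already known, so their own differences between the groups are given as a description, and the calls counted for them further on support nothing.

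The study asked whether a low dose of an androgen relieves depression-like behaviour in female mice. Dehydroepiandrosterone (DHEA) is a steroid made by the adrenal gland and a precursor of other androgens and of estrogens. Female C57BL/6 J mice, 6 to 8 weeks old, received DHEA at 30 mg/kg/day, or the vehicle sesame oil, as subcutaneous injections for 21 days, and both groups went through the same behavioural tests before dissection. RNA-seq was run on 4 hippocampal libraries labelled DHEA and 4 labelled Sesame Oil, and the methods describe the tissue as ventral hippocampus. No genotype differs between the groups, and every mouse was injected. The labels do not tie a library to an animal, cage or batch, so p-values measure the spread between these libraries. Directions below follow the deposited treatment labels. The study's own table of differential genes carries the opposite sign to these labels. Nothing in the deposited files settles which is right, the table or the labels. In the paper, qRT-PCR on additional hippocampal samples found Pomc, one of the pituitary markers below, up-regulated with DHEA, as were Aox2 and Wnt3a. The same qRT-PCR found Avpr1a, Ccr10 and P2ry10b down-regulated. The paper describes the qRT-PCR results for all of these genes as matching its own RNA-seq. The libraries labelled DHEA held less Pomc on average, with overlapping groups, which is the opposite direction. Levels of the other genes in the labelled libraries are not reported here, so Pomc alone is a limited check of the labels. Every "higher" or "lower in DHEA" below would turn around if the labels were exchanged.

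ETO family proteins do not bind DNA themselves. DNA-binding factors such as the E proteins, Gfi1 and other zinc finger repressors recruit them to promoters and enhancers, where they act as scaffolds: they oligomerize with one another and hold the corepressor Ncor1, Sin3 proteins and histone deacetylases, so that nearby genes are silenced. Runx1t1 is best known as the partner of RUNX1 in a fusion protein of acute myeloid leukaemia. Cbfa2t3 is known from blood stem cells, where it works in Tal1 complexes, and Cbfa2t2 from the intestine and from germ cells, where it partners Prdm14. In neurogenesis, family members are known to restrain proneural factors and Notch target genes.

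The most alike stretch of the 3 coding sequences shows how closely the members are related and whether reads can tell them apart. Pairwise over the aligned longest coding sequences, 64.4% of bases were identical between Cbfa2t2 and Cbfa2t3, 66.0% between Cbfa2t2 and Runx1t1, and 70.9% between Cbfa2t3 and Runx1t1. The 90-base window with the highest identity lies in a coding exon of each gene and encodes the zinc finger at the C-terminal end (the MYND domain), which is known to hold Ncor1. In the lines here, read 5′ to 3′ on the coding strand, capitals mark the 20 positions at which the 3 genes do not all carry the same base; 18 of the 20 fall on the third base of a codon, and 70 positions are identical in all 3.
Cbfa2t2: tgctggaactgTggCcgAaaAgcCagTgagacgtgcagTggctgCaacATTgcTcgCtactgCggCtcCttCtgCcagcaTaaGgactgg
Cbfa2t3: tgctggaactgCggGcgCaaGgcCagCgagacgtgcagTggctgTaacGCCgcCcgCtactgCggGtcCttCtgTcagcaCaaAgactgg
Runx1t1: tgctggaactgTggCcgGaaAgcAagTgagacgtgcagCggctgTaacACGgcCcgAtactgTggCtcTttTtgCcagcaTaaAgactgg
These windows were read from GENCODE vM21 transcripts (GRCm38), at chr2:154534887-154534976 on the plus strand for Cbfa2t2, chr8:122630884-122630973 on the minus strand for Cbfa2t3 and chr4:13889615-13889704 on the plus strand for Runx1t1. The longest run of bases shared exactly by any transcripts of a pair was 19 for Cbfa2t2 and Cbfa2t3, 23 for Cbfa2t2 and Runx1t1, and 29 for Cbfa2t3 and Runx1t1. The paired reads were 150 bases long, so a full-length read inside a transcript of one member differs from those of the others.

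On the same build, Cbfa2t2 spans chr2:154436481-154539356 (plus strand), Cbfa2t3 spans chr8:122625141-122699109 (minus strand) and Runx1t1 spans chr4:13743436-13893649 (plus strand). The processing notes name GRCm39 for the deposited files, and no coordinate was carried between the builds. Gm10612, a gene that lies antisense to Cbfa2t3, had 0 counts in all 8 libraries.

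Cbfa2t3 has 2 annotated start sites, and the counts add reads from both. The 250 bases before each start are shown because this gene had the largest difference of the family, with every CANNTG match (the E-box, the letters that E proteins and their partners bind) in capitals. Both run 5′ to 3′ on the minus strand of GRCm38.p6, at chr8:122678176-122678425 for the downstream start and chr8:122699110-122699359 for the upstream start.
Cbfa2t3 downstream start: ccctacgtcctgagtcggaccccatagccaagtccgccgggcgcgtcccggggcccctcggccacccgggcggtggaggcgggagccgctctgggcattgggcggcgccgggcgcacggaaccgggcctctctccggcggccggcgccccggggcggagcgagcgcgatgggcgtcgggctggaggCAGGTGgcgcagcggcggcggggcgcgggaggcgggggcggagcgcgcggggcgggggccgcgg
Cbfa2t3 upstream start: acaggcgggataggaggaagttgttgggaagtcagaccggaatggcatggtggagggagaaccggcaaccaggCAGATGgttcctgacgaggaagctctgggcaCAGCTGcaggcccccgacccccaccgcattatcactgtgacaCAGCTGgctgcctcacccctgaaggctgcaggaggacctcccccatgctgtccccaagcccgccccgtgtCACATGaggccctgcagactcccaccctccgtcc
The downstream window held 1 E-box match and 43 CpG dinucleotides at 83.2% GC, and the upstream window 4 E-box matches and 9 CpG at 64.0% GC. The window before the start of Cbfa2t2 had 78.4% GC, 41 CpG and 0 E-box matches. Across 32851 windows of this length before the starts of RefSeq genes, the median GC was 52.4%, and 66.2% held at least 1 CANNTG on either strand. AGAACA, the androgen receptor half-site, was found in 16.1% of those windows, the full androgen response element (that half-site followed, after a gap of 3 bases, by its reverse complement) in 0.00913%, and TGTGGT, a RUNX site, in 14.0%; the 3 windows of Cbfa2t2 and Cbfa2t3 held 0 of each on both strands. These are matches of letters, not sites of binding. RefSeq promoter sequences were matched for 2 of the 3 members.

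The libraries held 31483772 to 38038361 counts each. All 4 DHEA libraries (35748416 to 38038361) were deeper than all 4 sesame oil libraries (31483772 to 35418297). At these depths the members had 813 to 2144 counts in every library, far above the floor of 3 counts. The tissue label was checked against 10 markers of hippocampal neurons, and all 10 were detected in every library. Slc17a7, the vesicular glutamate transporter of hippocampal and cortical excitatory neurons, was the most abundant at a mean of 344 FPKM (fragments per kilobase of gene length, scaled to the library's total). In bulk tissue, fewer cells of a type and less RNA per cell cannot be told apart.

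All 3 members were lower on average in DHEA hippocampus, by very different amounts. Cbfa2t3 was 33.3% lower in DHEA, with no overlap between the groups, Runx1t1 was lower with overlapping groups, and Cbfa2t2, the most abundant member, differed by less than the spread between its libraries. Levels compared between groups are counts per 1000000 (CPM) after TMM normalization, which scales each library by a trimmed mean of its ratios to the others.

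Cbfa2t3, which joins E proteins and Tal1 to histone deacetylases, stood at 28.6, 28.5, 23.3 and 30.2 CPM in DHEA replicates 1 to 4. In sesame oil replicates 1 to 4 it stood at 50.2, 39.1, 38.7 and 37.8 CPM. The highest DHEA library lay below the lowest sesame oil library, DHEA replicate 3 was the lowest of all 8, and sesame oil replicate 1 stood well above the other 3 of its group. The means were 27.6 ± 3.0 CPM in DHEA and 41.5 ± 5.85 CPM in sesame oil (SD, n = 4 each). The edgeR log2 fold change, DHEA over sesame oil, was -0.58 with a standard error of 0.10. Leaving out each library in turn gave -0.63 to -0.48, the smaller figure without sesame oil replicate 1.

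Runx1t1, the member fused to RUNX1 in leukaemia, stood at 26.7, 22.8, 29.6 and 26.0 CPM in DHEA replicates 1 to 4. In sesame oil replicates 1 to 4 it stood at 34.05, 30.4, 33.0 and 27.6 CPM. The groups overlapped, since DHEA replicate 3 lay above sesame oil replicate 4, and the other 3 DHEA libraries lay below all 4 sesame oil libraries. The means were 26.3 ± 2.80 CPM in DHEA and 31.3 ± 2.89 CPM in sesame oil (SD, n = 4 each), 15.9% lower in DHEA. The log2 fold change was -0.25 with a standard error of 0.09, and -0.31 to -0.20 when each library was left out.

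Cbfa2t2, the member with the most counts in every library, stood at 57.7, 52.4, 52.0 and 52.6 CPM in DHEA replicates 1 to 4. In sesame oil replicates 1 to 4 it stood at 57.2, 54.8, 56.4 and 53.1 CPM. DHEA replicate 1 was the highest of all 8 libraries and the other 3 DHEA libraries were the lowest 3, so the groups overlapped. The means were 53.7 ± 2.69 CPM in DHEA and 55.4 ± 1.82 CPM in sesame oil (SD, n = 4 each). The log2 fold change was -0.04 with a standard error of 0.07.

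**Figure D1:**
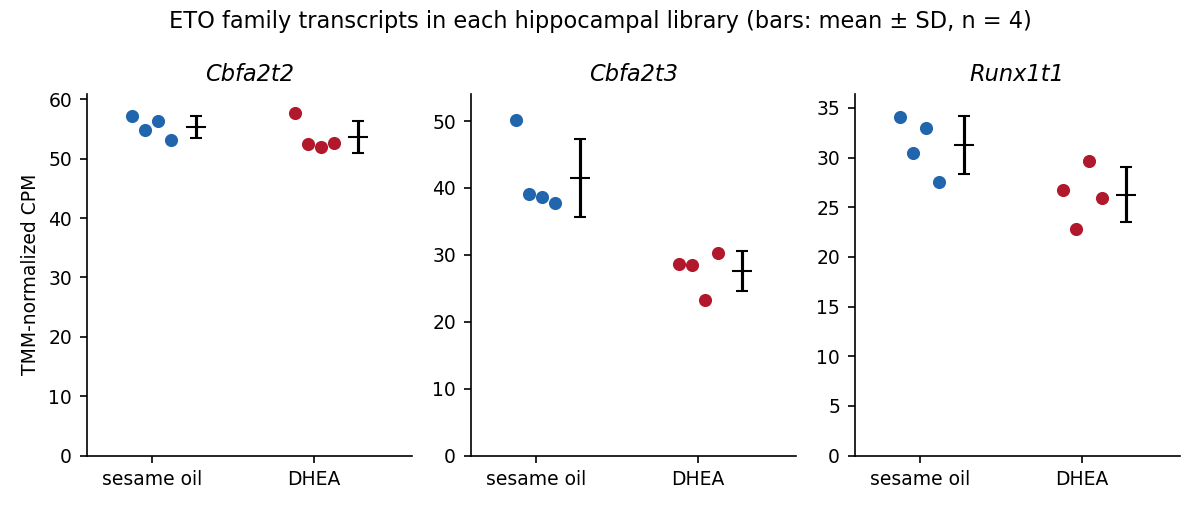
TMM-normalized CPM (y axis, from 0) of the 3 ETO family genes in the sesame oil (blue) and DHEA (red) libraries, 1 point per library in replicate order, with the mean ± SD (n = 4) beside each group. For Cbfa2t3 the 4 DHEA libraries (23.3 to 30.2) lie below the 4 sesame oil libraries (37.8 to 50.2), while the groups overlap for Cbfa2t2 and Runx1t1.

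Across the genome the contrast was weak. No gene passed edgeR's quasi-likelihood test at a Benjamini-Hochberg adjusted p under 0.05 (0%), 2571 had an unadjusted p under 0.05, and DESeq2 gave 153 genes with an adjusted p under 0.05. Among the 3 members, 2 (Cbfa2t3 and Runx1t1) were lower at an unadjusted p under 0.05, against 4.49% of all genes tested lower by that rule and 4.82% higher. Runx1t1 lost that call without sesame oil replicate 1 and with limma on either pseudocount, which leaves 1 member. By DESeq2's adjusted p, 1 member (Cbfa2t3) was lower, against 0.57% of the 12623 genes given an adjusted p. By groups that do not overlap in CPM, 1 member was lower, against 2.62% of all genes. No such share was computed for genes higher in DHEA or for summed levels. Because the 3 members were picked on this contrast, the counts add nothing to the values above.

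The balance within the family, taken as the ratio of 2 members' counts inside each library, needs no normalization between libraries. The genes were picked on this contrast and Cbfa2t2 differed little. A ratio to Cbfa2t2 therefore largely restates the other member's own difference and gives no further support. Cbfa2t3 counts per Cbfa2t2 count were 0.495, 0.543, 0.448 and 0.574 in DHEA replicates 1 to 4, and 0.878, 0.713, 0.687 and 0.713 in sesame oil replicates 1 to 4. The groups did not overlap, and the means were 0.515 ± 0.0552 in DHEA and 0.748 ± 0.0875 in sesame oil (SD, n = 4 each). Cbfa2t2 made up 48.4% to 51.1% of the family's counts in the DHEA libraries and 40.4% to 44.8% in the sesame oil libraries. Cbfa2t3 made up 22.2% to 27.8% in DHEA and 30.2% to 35.5% in sesame oil. The share of Runx1t1 overlapped, at 22.0% to 28.2% in DHEA and 23.3% to 25.7% in sesame oil. These shares are tied, since a lower share of Cbfa2t3 raises those of the other members.

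Ratios that involve Runx1t1 overlapped between the groups. Runx1t1 counts per Cbfa2t2 count were 0.490 ± 0.0581 in DHEA and 0.564 ± 0.0341 in sesame oil (SD, n = 4 each). Cbfa2t3 counts per Runx1t1 count were 1.07 ± 0.201 in DHEA and 1.33 ± 0.128 in sesame oil. DHEA replicate 3 had the lowest Cbfa2t3 (23.3 CPM) and the highest Runx1t1 (29.6 CPM) of the DHEA libraries, and it was the only library with fewer Cbfa2t3 than Runx1t1 counts, at a ratio of 0.787.

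**Figure D2:**
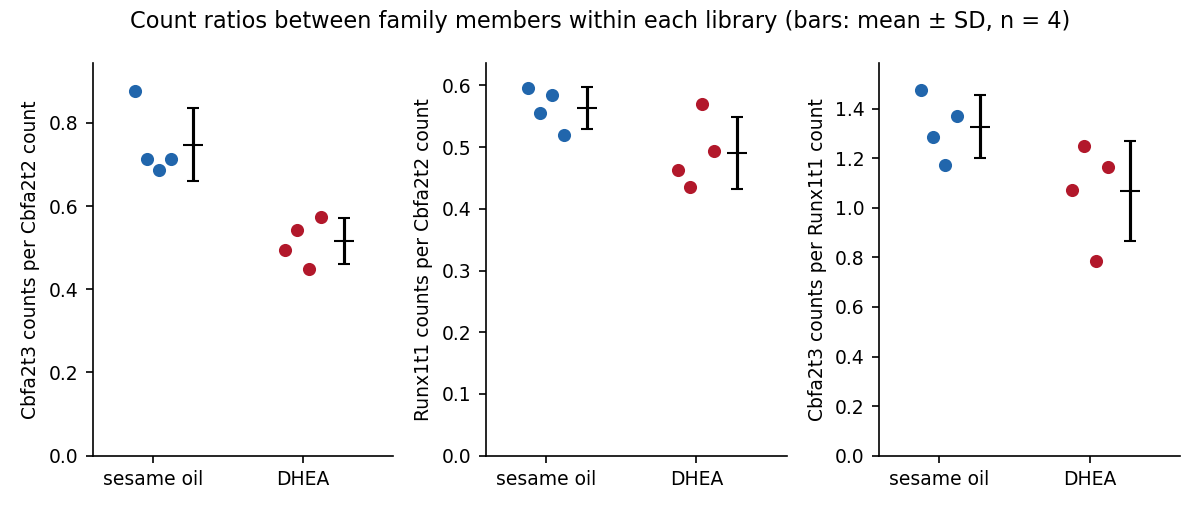
Ratios of raw counts between family members within each library (y axes, from 0), sesame oil in blue and DHEA in red, 1 point per library, with the mean ± SD (n = 4). Only the ratio of Cbfa2t3 to Cbfa2t2 separates the groups, at 0.448 to 0.574 in DHEA and 0.687 to 0.878 in sesame oil.

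Levels were compared between members per length, which the choice of the genes did not use. By the deposited FPKM the order was Cbfa2t2, then Cbfa2t3, then Runx1t1 in 8 of 8 libraries. Cbfa2t2 had 7.81 ± 0.343 FPKM in DHEA and 8.21 ± 0.238 in sesame oil, Cbfa2t3 had 2.62 ± 0.277 and 4.003 ± 0.569, and Runx1t1 had 0.605 ± 0.0738 and 0.733 ± 0.0647 (SD, n = 4 each). Cbfa2t2 ranked above 77.7% of genes tested by mean FPKM, Cbfa2t3 above 65.9% and Runx1t1 above 51.7%. Within libraries the log2 FPKM of Cbfa2t2 exceeded that of Cbfa2t3 by 1.31 ± 0.32 (SD, n = 8) and that of Runx1t1 by 3.59 ± 0.17, and Cbfa2t3 exceeded Runx1t1 by 2.28 ± 0.28. Each difference gave an adjusted p of 0.0078 over the 3 pairs in a two-sided exact permutation test of sign flips, the smallest value 8 libraries can give.

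The low place of Runx1t1 rests on the gene length inside the FPKM. Counts, totals and FPKM together give a length of 6809 bases for Cbfa2t2, 10458 for Cbfa2t3 and 43050 for Runx1t1. The longest GENCODE vM21 transcripts measure 6080, 7645 and 6090 bases, so the length used for Runx1t1 is 7.07 times that of its longest transcript there. With the longest transcript as the length, Cbfa2t3 and Runx1t1 could not be ordered: the mean log2 difference was -0.090 (adjusted p = 0.484, exact permutation test), with Runx1t1 above Cbfa2t3 in 4 of 4 DHEA libraries and below it in 3 of 4 sesame oil libraries. On that scale Cbfa2t3 had 3.62 ± 0.393 CPM per kilobase in DHEA and 5.42 ± 0.765 in sesame oil, and Runx1t1 4.31 ± 0.460 and 5.13 ± 0.474 (SD, n = 4 each). Cbfa2t2 remained the highest in 8 of 8 libraries, by 1.03 over Cbfa2t3 and 0.93 over Runx1t1 on the log2 scale (adjusted p = 0.0117 each, same exact test). A gene's length cancels in a comparison of that gene between groups, so the fold changes from counts do not depend on it.

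**Figure D3:**
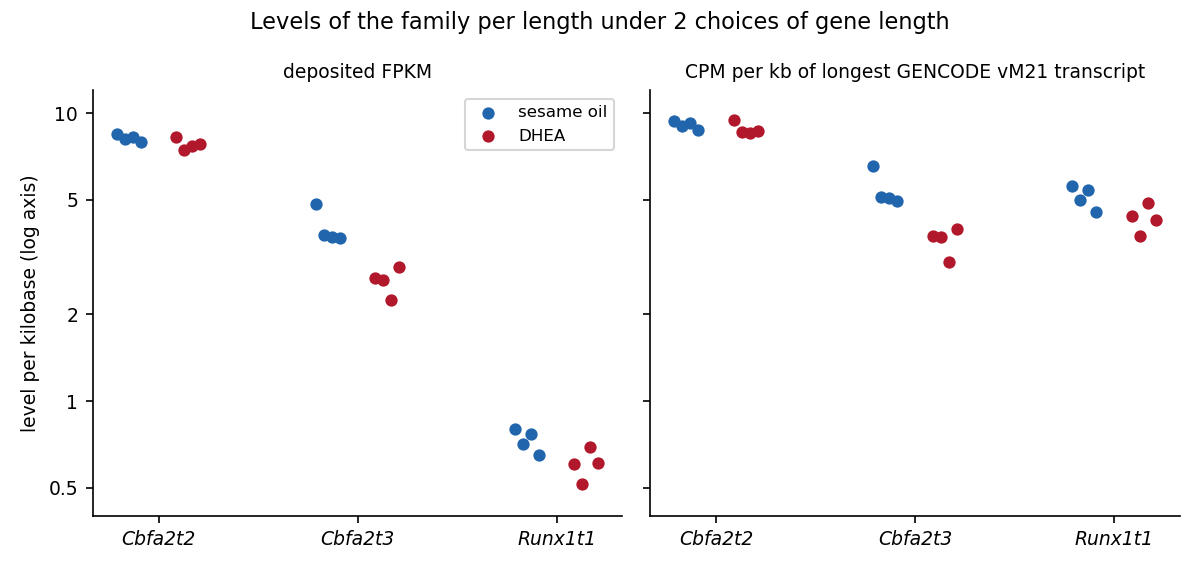
Level per kilobase (log axis) of each member in the 8 libraries, sesame oil in blue and DHEA in red, as deposited FPKM (left) and as CPM per kilobase of the longest GENCODE vM21 transcript (right). Cbfa2t2 is the highest in both panels, and Runx1t1 moves from below 1 to the level of Cbfa2t3 when the length changes from 43050 to 6090 bases.

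In the corepressor complex that the family scaffolds, most genes did not pass. Of 10 genes tested, 2 were lower at an unadjusted p under 0.05 (Sin3b among them; 4.49% of all genes were lower by that rule), 0 were higher, and the median log2 fold change was -0.11, against 0.0079 over all genes tested. The summed level of the 10 genes was 926 ± 17.6 CPM in DHEA and 992 ± 9.89 CPM in sesame oil (SD, n = 4 each), and the groups did not overlap. Singly, 3 of the 10 genes were lower in DHEA without overlap, against 2.62% of all genes tested. The list was chosen with earlier results known, so this count is a description. No gene of the 3 partner lists had an edgeR adjusted p under 0.05.

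Sin3b, a scaffold of the Sin3 deacetylase complex, stood at 63.0, 55.5, 66.8 and 64.5 CPM in DHEA replicates 1 to 4 and at 82.9, 78.4, 74.5 and 76.7 CPM in sesame oil replicates 1 to 4. The groups did not overlap, and the log2 fold change was -0.32 with a standard error of 0.07 (edgeR, adjusted p = 0.222; DESeq2 adjusted p = 0.0101). Ncor1, which docks on the zinc finger shown above, also had groups that did not overlap, at 301 to 316 CPM in DHEA and 326 to 333 CPM in sesame oil. Its log2 fold change was -0.10 (edgeR, unadjusted p = 0.0849, adjusted p = 0.588, DESeq2 adjusted p = 0.205). With the GC trend removed it was -0.11 (edgeR, unadjusted p = 0.0469).

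The deacetylases themselves were less apart. Hdac3, the catalytic partner of Ncor1 and the most abundant gene of this list at 34.8 FPKM, had a log2 fold change of -0.14 (SE 0.07, edgeR adjusted p = 0.569, DESeq2 adjusted p = 0.373) and overlapping groups. Hdac2, at 33.4 FPKM, had a log2 fold change of -0.05 (SE 0.07), and Hdac1 0.04 (SE 0.08). For Hdac2 it was -0.11 with the GC trend removed and -0.11 to -0.013 as each library was left out. Tbl1xr1 and Tbl1x, which exchange corepressors on chromatin, had log2 fold changes of 0.12 and 0.06, both short of the threshold.

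The DNA-binding partners, which bring the family to its targets, showed no common direction. Of 25 genes, 24 had counts and were tested. At an unadjusted p under 0.05, 1 was lower (Ldb1) and 1 higher (Runx3), close to the 4.49% and 4.82% of all genes. The median log2 fold change was 0.03, but -0.013 with the GC trend removed and 0.0004 with limma on log2(FPKM + 1). It ranged from 0.0038 to 0.076 as each library was left out (lowest without DHEA replicate 4, highest without DHEA replicate 3). Prdm14, the germ cell partner of Cbfa2t2, had 0 counts in all 8 libraries. Ldb1, the bridging protein of Tal1 and Gata complexes, was the most abundant gene of this list by FPKM (13.3). Its level was 85.2 ± 8.52 CPM in DHEA and 96.9 ± 5.75 CPM in sesame oil (SD, n = 4 each), and its groups overlapped. The log2 fold change of Ldb1 was -0.18 with a standard error of 0.07 (edgeR adjusted p = 0.446, DESeq2 adjusted p = 0.239). Runx3 had 5, 0, 2 and 2 counts in DHEA replicates 1 to 4 and 0 in every sesame oil library, near the floor of 3 counts, so no fold is given.

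The E proteins themselves did not pass. Tcf4, the E protein most abundant here, stood at 565 ± 9.69 CPM in DHEA and 536 ± 5.57 CPM in sesame oil (SD, n = 4 each), groups that did not overlap. Its log2 fold change was 0.08 with a standard error of 0.05 (edgeR adjusted p = 0.663, DESeq2 adjusted p = 0.448), or 0.012 with the GC trend removed. Tcf12 had a log2 fold change of 0.002 and Tcf3 of -0.10. The factors known from blood cells spanned a wide range: Gata1 and Gfi1b had 0 or 1 count in each library, Gfi1 0 to 4, Tal1 59 to 81, Gata2 111 to 187, Lmo2 414 to 669 and Ldb1 2724 to 3539.

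Inhibitors of E proteins and the Notch pathway, whose targets the family is known to restrain, held the partner genes that were higher in DHEA, Runx3 apart. Of 18 genes, 4 were higher at an unadjusted p under 0.05 (Id2, Id4, Heyl and Id3), against 4.82% of all genes, and 0 were lower. The median log2 fold change was 0.065. It was 0.0065 without DHEA replicate 2, 0.13 without DHEA replicate 3 and 0.028 without sesame oil replicate 3. With limma it was 0.021 on log2(FPKM + 1) and 0.025 on log2(FPKM + 0.1). Id2, Id3 and Id4 proteins pair with E proteins and keep them from DNA, and Heyl is a repressor induced by Notch.

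Id4 stood at 90.3, 113, 98.9 and 100 CPM in DHEA replicates 1 to 4 and at 81.3, 76.4, 74.3 and 87.5 CPM in sesame oil replicates 1 to 4. The groups did not overlap, and the log2 fold change was 0.33 with a standard error of 0.07 (edgeR, adjusted p = 0.230; DESeq2 adjusted p = 0.0323). Id2, the most abundant gene of this list at 62.0 FPKM, stood at 92.2, 89.5, 83.6 and 88.4 CPM in DHEA and at 64.1, 64.6, 85.9 and 63.5 CPM in sesame oil. Its groups overlapped because sesame oil replicate 3 lay above DHEA replicate 3, while the other 3 sesame oil libraries lay together and far lower. Its log2 fold change was 0.35 with a standard error of 0.09 (edgeR adjusted p = 0.241, DESeq2 adjusted p = 0.0549).

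Heyl was expressed at a low level, 6.45 ± 0.962 CPM in DHEA and 4.68 ± 0.161 CPM in sesame oil (SD, n = 4 each), without overlap between the groups. Its log2 fold change was 0.46 with a standard error of 0.15 (edgeR adjusted p = 0.336, DESeq2 adjusted p = 0.0902). Id3 stood at 25.5 ± 1.68 CPM in DHEA and 22.2 ± 1.51 CPM in sesame oil. The log2 fold change of Id3 was 0.20 with a standard error of 0.09 (edgeR adjusted p = 0.5004, DESeq2 adjusted p = 0.276). The remaining 14 genes did not pass, among them the receptors Notch1 (-0.06), Notch2 (-0.08), Notch3 (-0.01) and Notch4 (-0.06) and the Notch target Hes1 (-0.03), all as log2 fold changes.

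**Figure D4:**
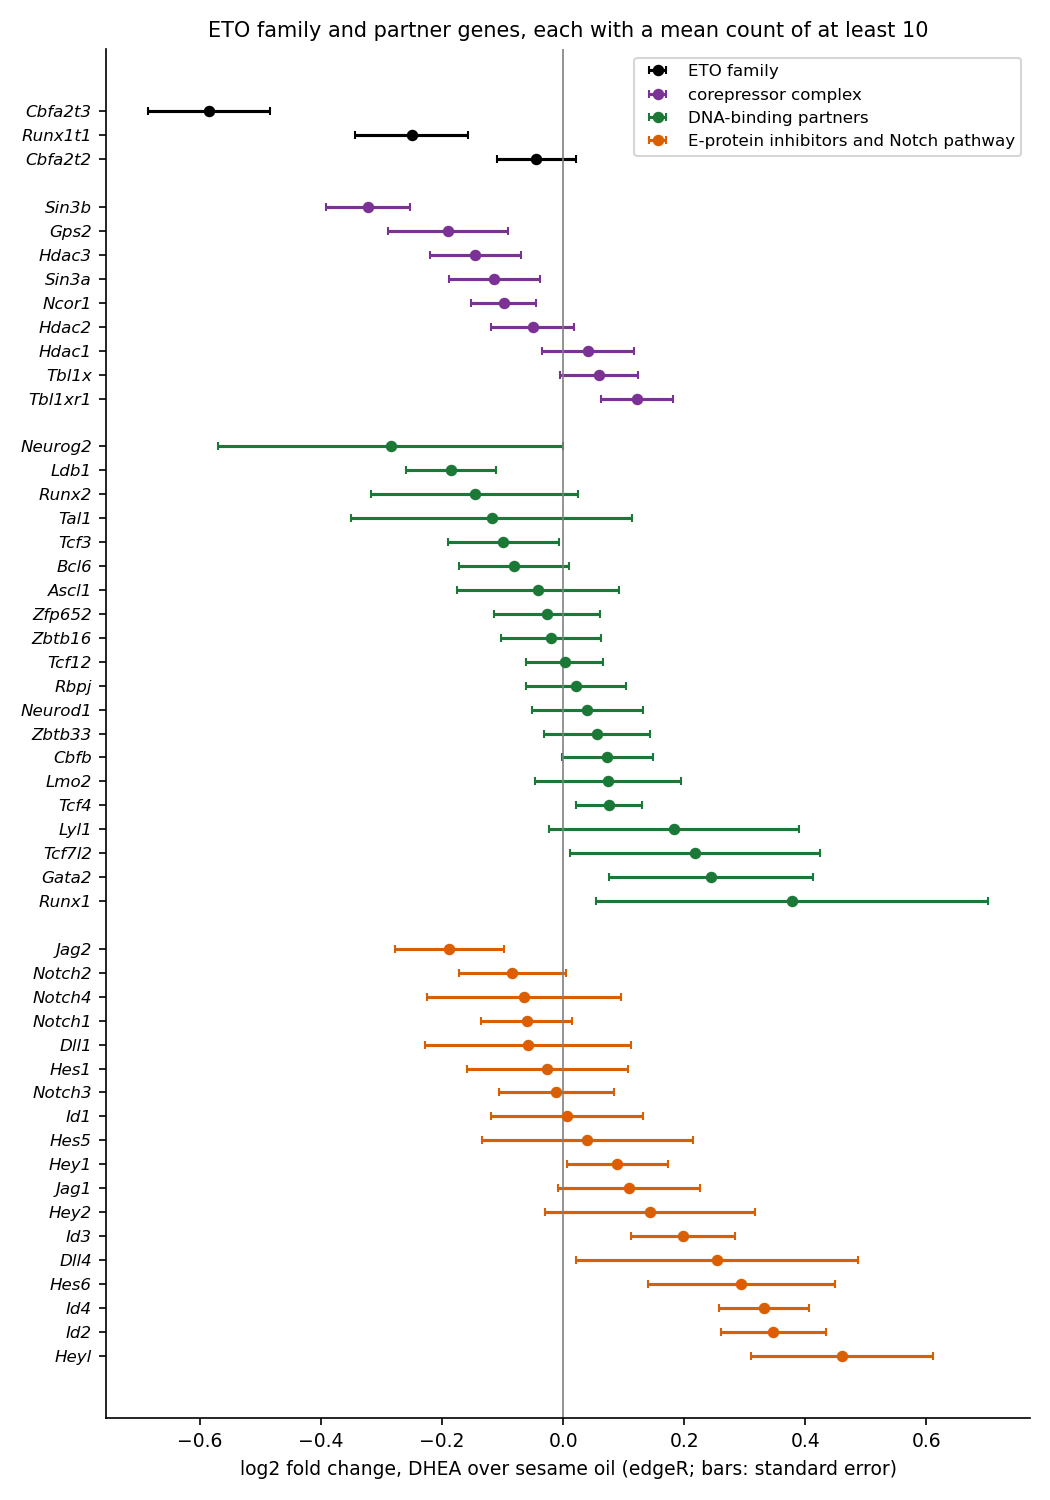
Log2 fold change, DHEA over sesame oil, with its standard error (edgeR, 4 libraries a group), for the family (black), the corepressor complex (purple), the DNA-binding partners (green) and the E-protein inhibitors and Notch pathway (orange), each gene shown averaging 10 or more counts. Cbfa2t3 (-0.58) lies farthest left, Sin3b lies farthest left of the corepressors shown, and Heyl, Id2 and Id4 lie to the right.

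Markers of other cells moved with the treatment label too. All 7 oligodendrocyte markers were higher at an unadjusted p under 0.05 (0 at edgeR adjusted p under 0.05, 1 by DESeq2), and their summed level was 6202, 7851, 6127 and 6313 CPM in DHEA replicates 1 to 4 and 4958, 4942, 4184 and 5971 CPM in sesame oil replicates 1 to 4. The sum of 10 hippocampal neuron markers was 2348 ± 43.8 CPM in DHEA and 2492 ± 112 CPM in sesame oil (SD, n = 4 each). The groups nearly touched, at 2292 to 2390 CPM in DHEA and 2397 to 2655 CPM in sesame oil. Singly, 1 gene was lower (Rbfox3) and 1 higher (Bok) at an unadjusted p under 0.05. The part of these cells in the values of the family, of the corepressors and of the Id genes was not tested.

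Of 6 astrocyte markers, 4 were higher, with Slc1a2 the most abundant at 291 FPKM (2 with the GC trend removed, Gfap and Aldoc), and of 5 oligodendrocyte precursor markers 2 were higher, with Olig1 the most abundant and a summed level that did not overlap between the groups (244 to 279 CPM in DHEA, 218 to 242 CPM in sesame oil). Of 6 microglial markers 2 were higher (P2ry12 among them), of 5 endothelial markers 1 (Pecam1; most abundant, Cldn5), and of 5 thalamic markers 1 (Rora; most abundant, Prkcd), all at an unadjusted p under 0.05. With the GC trend removed, Rora lost its call (edgeR, unadjusted p = 0.108) and Cldn5 gained one (edgeR, unadjusted p = 0.0437). None of the 8 interneuron markers (most abundant, Sst), 7 immature neuron markers (Calb2), or 5 choroid plexus markers (Ttr) passed in either direction. The choroid plexus sum ran from 91.5 CPM in DHEA replicate 2 to 4405 CPM in DHEA replicate 1. Of 5 anterior pituitary markers, 3 were lower in the libraries labelled DHEA at an unadjusted p under 0.05 (Gh, Prl and Pomc). Pomc kept that call in 6 of 8 fits that left out 1 library. The sum of the list was 0.903 to 1.206 CPM in DHEA and 1.207 to 28.5 CPM in sesame oil, highest in sesame oil replicate 2. Cga and Tshb had 0 to 4 counts.

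Signs of library quality also ran with the label. Mitochondrially encoded genes took 7.29% to 9.34% of counts in DHEA and 6.37% to 7.23% in sesame oil. Across 15594 genes averaging 10 or more counts, the correlation of a gene's deviation with its GC content was negative in all 4 DHEA libraries (r from -0.113 to -0.00445) and positive in all 4 sesame oil libraries (0.0558 to 0.136). The longest transcripts have 48.5% GC for Cbfa2t2, 55.8% for Cbfa2t3 and 44.4% for Runx1t1. With the GC trend removed from each library, the log2 fold changes were -0.06 for Cbfa2t2, -0.56 for Cbfa2t3 and -0.29 for Runx1t1.

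**Figure D5:**
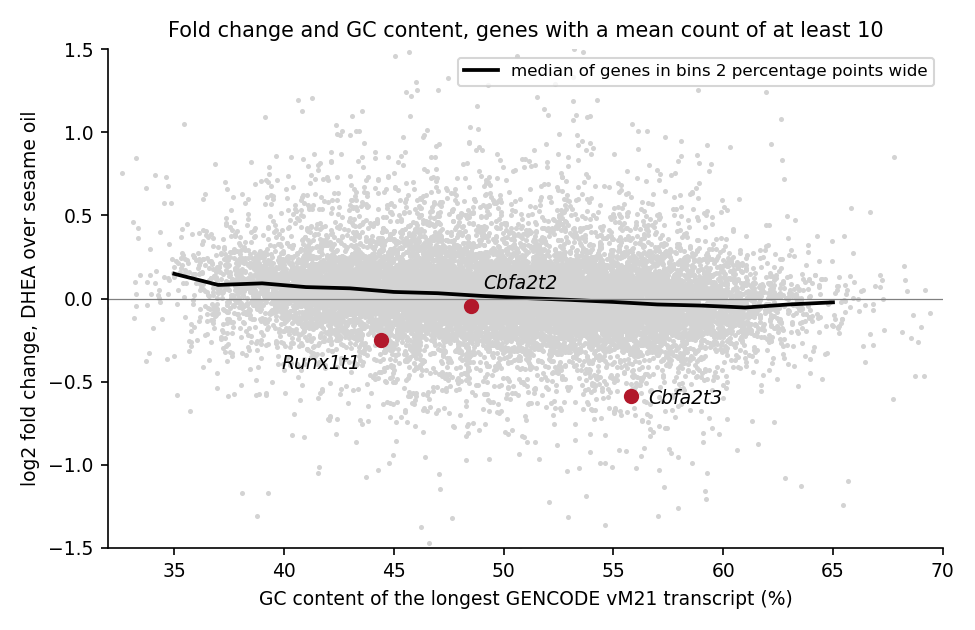
Log2 fold change, DHEA over sesame oil (y axis), against the GC content of the longest GENCODE vM21 transcript (x axis, %) for 15594 genes averaging 10 or more counts (grey), of which 30 fall outside the axes, with the median per GC bin (black line) and the 3 family members (red). The line slopes from above 0 at low GC to below 0 at high GC, and Cbfa2t3 (-0.58) and Runx1t1 (-0.25) lie below it.

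Genes whose pattern was most like each member over the 8 libraries were ranked by Pearson's r of log2(CPM + 0.5) among 12779 genes averaging 100 or more counts. These r values are a description of the best of many genes, and part of each can come from the difference between the groups. Cbfa2t3 was followed most closely by Pds5a, a cohesin regulator (r = 0.980), and Cacnb1, a calcium channel subunit (r = 0.965). Pds5a stood at 84.3 to 89.0 CPM in DHEA and 93.1 to 99.5 CPM in sesame oil, a log2 fold change of -0.15, so its range was much narrower than that of Cbfa2t3. Runx1t1 was followed by Pclo, a scaffold of the presynaptic active zone (r = 0.975), and Sh2b1, a signalling adaptor (r = 0.972). Pclo stood at 390 ± 28.7 CPM in DHEA and 454 ± 21.8 CPM in sesame oil (SD, n = 4 each), with overlapping groups, as for Runx1t1. Cbfa2t2 was followed by Tmem69, a membrane protein (r = 0.963), and Mtfp1, a protein of mitochondrial fission (r = 0.959), both with DHEA replicate 1 as their highest library.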

How the data were processed

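Hippocampal RNA (polyA) was sequenced as paired 150-base reads in 8 libraries; the series' design text speaks of 6 tissues, and all 8 labelled libraries were used. Per the labels, the submitters' processing notes name fastp, HISAT2, HTSeq and GRCm39. The authors' deposited tables hold unnormalized read counts for each gene and FPKM, in which the same counts are divided by the library total and by 1 length for each gene. The gene annotation and library strandedness are not given in the sources used here, so reads of overlapping genes could be misassigned. Groups came from the treatment labels, 4 libraries each.

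From the counts, edgeR 4.0.16 (R 4.3.3; TMM, quasi-likelihood test, prior count 0.125) was fitted over all 27612 genes with at least 1 count, with Benjamini-Hochberg adjustment over all of them. DESeq2 1.42.0, limma 3.58.1 on log2(FPKM + 1) or log2(FPKM + 0.1), other filters and normalizations, removal of a GC trend (lowess, span 0.3; 92.7% of genes averaging 10 or more counts had a GC value), thinning, and leaving out each library were alternatives. Scripts were tested on simulated data. Coding sequences were aligned with MAFFT 7.526.

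Named genes were the 3 members, up to 5 genes per partner list with an unadjusted p under 0.05 plus the 2 most abundant by FPKM, 2 genes most like each member, and the most abundant and near-absent marker of each cell type; Ncor1, Hdac1, Tbl1x, Tbl1xr1, Tcf3, Tcf12, Gata1, Gfi1, Gfi1b, Gata2, Lmo2, Tal1, Notch1 to Notch4, Hes1, Aldoc, Gfap, Prdm14, Rbfox3, Bok, P2ry12, Pecam1, Rora, Gh and Pomc were added after their values were seen. Members and lists were chosen with earlier results of these data known. Tcf7l2 and Neurod1 stand on 2 lists each. The red blood cell list (5 genes) gave 0 calls in either direction, at summed levels of 45.7 to 159 CPM. Some genes that this rule names are not reported here.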

Additional observations from a re-analysis of the deposited data

Results flagged for a closer look

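Across 64 groups of 4 libraries examined, 5 had 1 library standing apart by Dixon's test (gap to the nearest library over the range of the group, above the 95% critical value for 4 libraries), and chance flags about 1 in 20, or 3.2 of 64. In DHEA, replicate 1 had 57.7 CPM of Cbfa2t2 against 52.0 to 52.6 in the other 3 (gap share 0.891). In sesame oil, replicate 1 had 50.2 CPM of Cbfa2t3 against 37.8 to 39.1 (gap share 0.896), and 0.878 Cbfa2t3 counts per Cbfa2t2 count against 0.687 to 0.713 (gap share 0.862). Sesame oil replicate 3 had 85.9 CPM of Id2 against 63.5 to 64.6 (gap share 0.951). DHEA replicate 2 had a summed oligodendrocyte marker level of 7851 CPM against 6127 to 6313 (gap share 0.892).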

How the results depend on the processing

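The log2 fold changes of the 3 members kept their direction under all 18 alternatives: -0.63 to -0.46 for Cbfa2t3, -0.31 to -0.11 for Runx1t1 (-0.11 with limma on log2(FPKM + 1), where a low FPKM, here set by the long gene length, shrinks the difference) and -0.08 to -0.03 for Cbfa2t2. The number of genes with an adjusted p under 0.05, 0 with edgeR, was 153 with DESeq2, 4 with robust moderation and 0 to 93 when each library was left out (93 without DHEA replicate 3). Of the corepressor complex, 4 genes rather than 2 were lower with DESeq2, with filterByExpr, with limma on either pseudocount and with the GC trend removed, and 2 to 4 when each library was left out; 1 was higher with filterByExpr and 0 to 1 without single libraries. Of the DNA-binding partners, 0 rather than 1 were higher with DESeq2, at least 10 counts, filterByExpr and limma on either pseudocount, and 0 to 2 without single libraries, where 0 to 1 were lower. Of the E-protein inhibitors and Notch pathway, 1 rather than 0 was lower with DESeq2, RLE normalization, at least 10 counts, filterByExpr and robust moderation, and 0 to 1 without single libraries. The log2 level of Cbfa2t3 over Runx1t1, 2.28 by FPKM, was -0.090 with the longest transcript and 0.20 with the longest coding sequence as length, both chosen after seeing the data. Ldb1 lost its unadjusted p under 0.05 without DHEA replicate 2 or sesame oil replicate 1, Id3 without DHEA replicates 1 or 4 or sesame oil replicates 3 or 4, and Runx3 without DHEA replicate 1. Hdac3 gained one with thinning, with the GC trend removed and without DHEA replicates 3 or 4. Its log2 fold change was -0.19 to -0.096 as each library was left out. The cause of these shifts was not tested. Calls on 4 libraries a group are limited by the spread between libraries. No paired analysis was possible because the replicate numbers were given in accession order, and no label ties libraries of the groups to a shared litter, batch or day.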
